A study of Mus musculus with 2 samples.

Results

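The 7 haemoglobin chain genes Hba-a1, Hba-a2, Hba-x, Hbb-bs, Hbb-bt, Hbb-y and Hbb-bh1 were followed in single-cell libraries of newborn mouse kidney. They were taken by symbol from the 32285 genes of the count tables, and all 7 were found. The study holds 2 libraries of kidney at postnatal day 0. Both carry the genotype Rbpj c/+ ; Foxd1cre/+, with 1 conditional allele of Rbpj, the DNA-binding partner of Notch, and Cre under the control of Foxd1, a gene of kidney stromal progenitors. They form 1 group with n = 2, libraries of other genotypes were not analysed here, and the labels do not say whether each library came from 1 animal or from pooled animals. No strain is given. Values are therefore set side by side per library without a test of groups, and any difference between libraries is a description of 2 libraries that may be technical.

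Haemoglobin joins alpha-type with beta-type chains around haem. In the mouse, the first red cells come from the yolk sac and make the embryonic chains Hba-x (zeta), Hbb-y (epsilon-y) and Hbb-bh1 (beta-h1) beside alpha chains. Later red cells, from the fetal liver and then the bone marrow, make the adult alpha chains Hba-a1 and Hba-a2 and the adult beta chains Hbb-bs and Hbb-bt. The Hbb-bs and Hbb-bt pair belongs to a beta haplotype found in C57BL/6 mice, and other strains carry Hbb-b1 and Hbb-b2 at the same locus. A newborn kidney receives these cells with the blood.

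The 2 clusters lie apart in the GENCODE annotation of build GRCm38. The alpha genes are on the plus strand of chromosome 11, with Hba-x at 32276400 to 32278116, Hba-a1 at 32283511 to 32284465 and Hba-a2 at 32296489 to 32297298. The beta genes are on the minus strand of chromosome 7, with Hbb-y at 103851749 to 103853216, Hbb-bh1 at 103841637 to 103843164, Hbb-bs at 103826534 to 103828096 and Hbb-bt at 103812524 to 103813996. Each of the 7 has 3 exons in the transcript used, and in each cluster the embryonic genes stand first in the direction of transcription. The adult copies are nearly the same. Hba-a1 and Hba-a2 differ at 1 of 429 coding bases, and their 3' untranslated regions of 74 and 90 bases match at all 74 aligned bases. Hbb-bs and Hbb-bt also differ at 1 coding base, of 444, but at 35 of 129 aligned bases of the 3' untranslated region. Of the 90-base windows of the Hba-a2 transcript, 359 of 465 also occur in Hba-a1, and 341 of 539 windows of Hbb-bs occur in Hbb-bt. The libraries were read from the 3' end, so the split of the alpha pair is uncertain. The beta pair differs in its 3' untranslated region, but reads wholly within the shared windows cannot be told apart. The Hbb-bt share thus also depends on how reads were assigned, and where the reads fell was not measured. Hba-x shares 66.0% of aligned coding bases with Hba-a1, and Hbb-y shares 74.3% with Hbb-bs, with no shared 90-base window in either pair.

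Promoters are shown so that the adult genes can be compared with the embryonic genes, whose counts differed so widely. They are the 120 bases before the RefSeq start, from build GRCm38.p6, for 5 of the 6 members whose promoters were matched. These starts differ from the GENCODE gene bounds given above. By those bounds, the windows of Hba-a1, Hba-x and Hbb-bs lie inside the gene, and those of Hbb-bt and Hbb-y overlap it in part. The Hba-a2 promoter has no mismatch with that of Hba-a1 over 117 aligned bases. Capitals mark 4 motifs on either strand, namely CACCC of the Klf1 family, the box CCAAT, the Gata factor motif GATAA and the box TATAA. Adjacent capitals in Hbb-bt are CCAAT on the opposite strand followed by CCAAT.
Hba-a1, chr11:32283552-32283671, plus strand: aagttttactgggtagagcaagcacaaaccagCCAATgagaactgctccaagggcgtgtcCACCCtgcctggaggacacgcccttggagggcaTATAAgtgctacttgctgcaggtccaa
Hba-x, chr11:32276480-32276599, plus strand: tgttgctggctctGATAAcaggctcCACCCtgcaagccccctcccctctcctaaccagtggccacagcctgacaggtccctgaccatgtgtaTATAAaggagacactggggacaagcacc
Hbb-bs, chr7:103827929-103828048, minus strand: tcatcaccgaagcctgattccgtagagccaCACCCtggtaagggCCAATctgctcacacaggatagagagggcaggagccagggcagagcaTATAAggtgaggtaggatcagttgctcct
Hbb-bt, chr7:103813924-103814043, minus strand: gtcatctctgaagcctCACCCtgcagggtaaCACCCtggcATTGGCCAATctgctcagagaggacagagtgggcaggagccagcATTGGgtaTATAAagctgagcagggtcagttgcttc
Hbb-y, chr7:103853208-103853327, minus strand: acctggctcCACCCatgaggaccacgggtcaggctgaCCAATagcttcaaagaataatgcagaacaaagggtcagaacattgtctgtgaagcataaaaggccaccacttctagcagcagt
All 5 windows hold CACCC, which occurs in 31.7% of 32851 promoter windows of this length. CCAAT, in 21.3% of windows, is in all but Hba-x. TATAA, in 11.8% of windows, is in all but Hbb-y. GATAA, in 10.5% of windows, was found in Hba-x alone among them. A match is a description of letters and not a bound site.

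Depth was large for whole libraries and small for red cells. Replicate 1 held 200331687 molecules counted by unique identifiers (UMIs) and replicate 2 held 173166168, of which the 7 genes took 0.900% and 1.09%. Barcodes with at least 3000 UMIs and 500 genes were called cells, 6072 and 4838 of them, and 6 cell barcodes occur in both libraries. An erythroid-like class of 29 cells in replicate 1 and 52 cells in replicate 2 was found by clustering without any haemoglobin gene. It was named from 11 red cell markers, 7 of them raised in the cluster. Tspo2, a marker from the list, stood at 271 and 268 CPM (counts scaled to a total of 1e6 UMIs), against 0.392 and 0.421 CPM in the other cells. These cells had medians of 7252 and 11699.5 UMIs and of 576 and 584 genes, just above the minimum of 500 genes. The markers of each of the 15 other cell types had a median of 0 UMIs per erythroid-like cell. The highest single cell, in replicate 2, held 61 endothelial marker UMIs. None of the erythroid-like cells shared a barcode between libraries. The other cells held nephron, stromal, endothelial and immune classes named from such markers, as kidney tissue would.

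Within erythroid-like cells the adult chains made up nearly all haemoglobin, and Hbb-bs was the most abundant. The 7 genes together held 69.2% of these cells' UMIs in replicate 1 (148160 of 214216; exact 95% interval 69.0 to 69.4) and 82.9% in replicate 2 (497871 of 600266; 82.8 to 83.0), a mean of 76.1% ± 9.74 (SD, n = 2). Per cell, the haemoglobin share ran from 11.9% to 84.8% in replicate 1, with a median of 73.8%, and from 48.2% to 90.5% in replicate 2, with a median of 85.0%. At least 50% haemoglobin was reached in 25 of 29 and 51 of 52 of the cells. Intervals here and below cover counting error only. UMIs count molecules from their 3' ends and were not divided by length.

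Hbb-bs, the major adult beta chain, was counted at 335521 and 425601 CPM in the erythroid-like cells of replicates 1 and 2. Hbb-bt, the other adult beta chain, stood at 115510 and 143098 CPM. Hba-a1 was counted at 142641 and 147621 CPM and Hba-a2 at 97962 and 113093 CPM. The order was the same in both libraries, from Hbb-bs through Hba-a1 and Hbb-bt to Hba-a2, and the gap between Hba-a1 and Hbb-bt was smaller in replicate 2. All 4 adult genes were detected in every erythroid-like cell, also after each cell was thinned to 3000 UMIs.

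The embryonic chains were close to absent from the same cells. Hbb-y, the embryonic epsilon-type beta chain, had 1 UMI in replicate 1 and 2 UMIs in replicate 2, and the latter were in 1 cell. Hba-x, the embryonic zeta chain, and Hbb-bh1, the other embryonic beta chain, had 0 UMIs in both. The embryonic share of haemoglobin was 6.749e-04% in replicate 1 (1 of 148160 UMIs; exact interval 1.709e-05 to 0.00376) and 4.017e-04% in replicate 2 (2 of 497871; 4.865e-05 to 0.00145). For a gene at 0 the counts allow up to 0.00202% of haemoglobin in replicate 1 and 6.026e-04% in replicate 2. The libraries were not distinguishable in this share at this depth. Over both libraries the mean was 5.383e-04% ± 1.932e-04 (SD, n = 2).

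**Figure D1:**
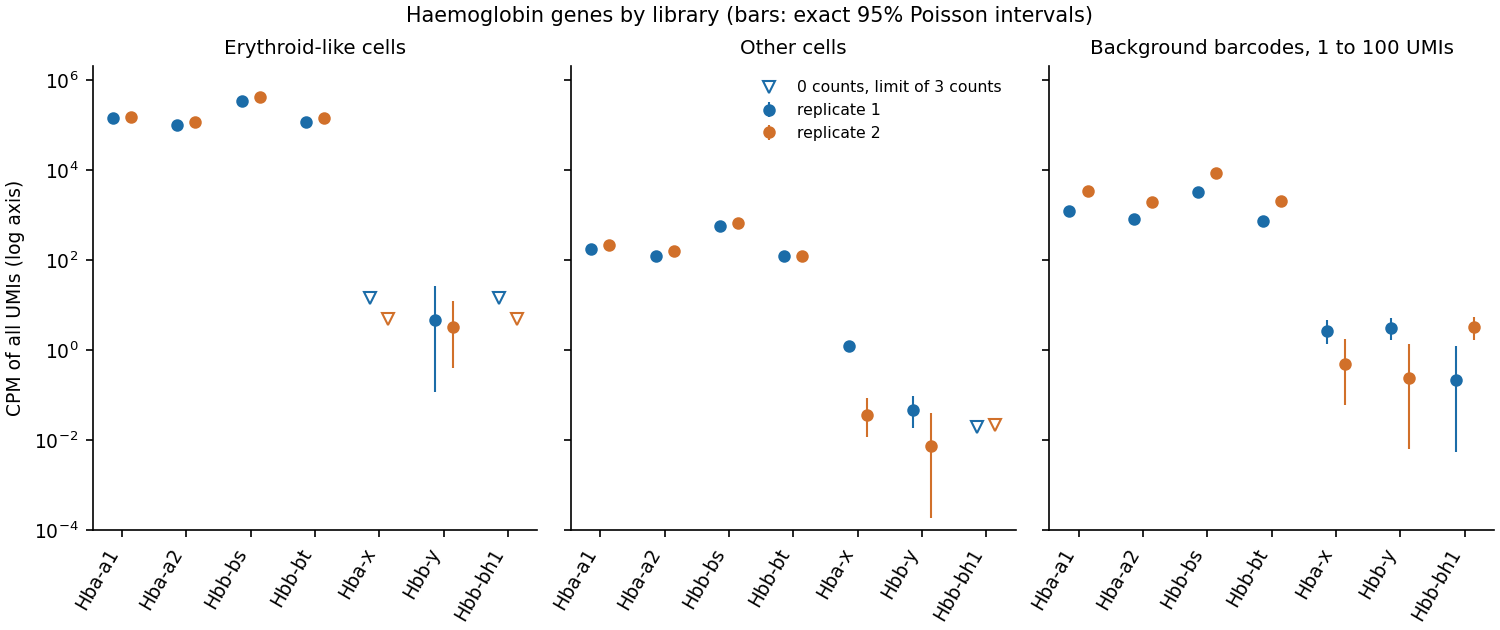
CPM of the 7 genes on a log axis in each library, in erythroid-like cells, other cells and background barcodes, with exact 95% Poisson intervals and open triangles at 3 counts where a gene had 0. In erythroid-like cells the 4 adult genes sit between 97962 and 425601 CPM, and Hbb-y sits at 4.67 and 3.33 CPM.

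The balance of chains was close in both libraries, with differences larger than counting error. Alpha-type chains held 34.8% of haemoglobin UMIs in replicate 1 (34.5 to 35.0) and 31.4% in replicate 2 (31.3 to 31.6), a mean of 33.1% ± 2.37 (SD, n = 2). Hbb-bt held 25.6% of adult beta UMIs in replicate 1 (25.3 to 25.9) and 25.2% in replicate 2 (25.02 to 25.31), a mean of 25.4% ± 0.317. Hba-a2 held 40.7% and 43.4% of adult alpha UMIs, with the uncertainty of the alpha pair given above. Among 732 genes with at least 20 counts in these cells, 7.79% were at least 2-fold higher and 27% at least 2-fold lower in replicate 2. None of the 4 adult genes was. Their CPM ratios of replicate 2 over replicate 1 were 1.03 for Hba-a1 (exact interval 1.02 to 1.05), 1.15 for Hba-a2 (1.14 to 1.17), 1.27 for Hbb-bs (1.26 to 1.28) and 1.24 for Hbb-bt (1.22 to 1.26). A gene counted as higher or lower here only where its count exceeded 3, with smaller counts on the other side set to 3. Haemoglobin held 69.2% and 82.9% of these cells' UMIs, so a 2-fold rise of its sum was not possible. Its larger share in replicate 2 also lowers every other CPM there, so the 732 genes are not a neutral measure.

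Cells differed more in the beta pair than in the alpha pair. The Hbb-bt share of adult beta ran from 4.93% to 35.5% over the 29 cells of replicate 1, with a median of 24.98%, and from 14.4% to 33.8% over the 52 cells of replicate 2, with a median of 24.995%. Its SD over cells was 8.27 and 4.72 percentage points, against 0.906 and 0.586 points given by counting alone. The Hba-a2 share had an SD of 4.49 and 2.20 points, against 1.42 and 1.05 points from counting. The alpha-type share had an SD of 3.27 and 3.49 points. Shares of Hbb-bt under 15% were found in 4 cells of replicate 1 and 1 cell of replicate 2.

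Most haemoglobin lay outside the cells that met both minimums. Erythroid-like cells held 8.22% of the haemoglobin UMIs of replicate 1 and 26.4% of those of replicate 2. Barcodes with at least 3000 UMIs but fewer than 500 genes, 501 and 479 of them, held 54.9% and 48.8%. In 212 and 155 of these, haemoglobin was at least 50% of the UMIs. Their chains were again adult, with 5 embryonic UMIs of 989583 in replicate 1 and 7 of 919214 in replicate 2. Hbb-bt held 21.3% and 18.1% of adult beta there, below its share in erythroid-like cells by more than counting error in both libraries.

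**Figure D2:**
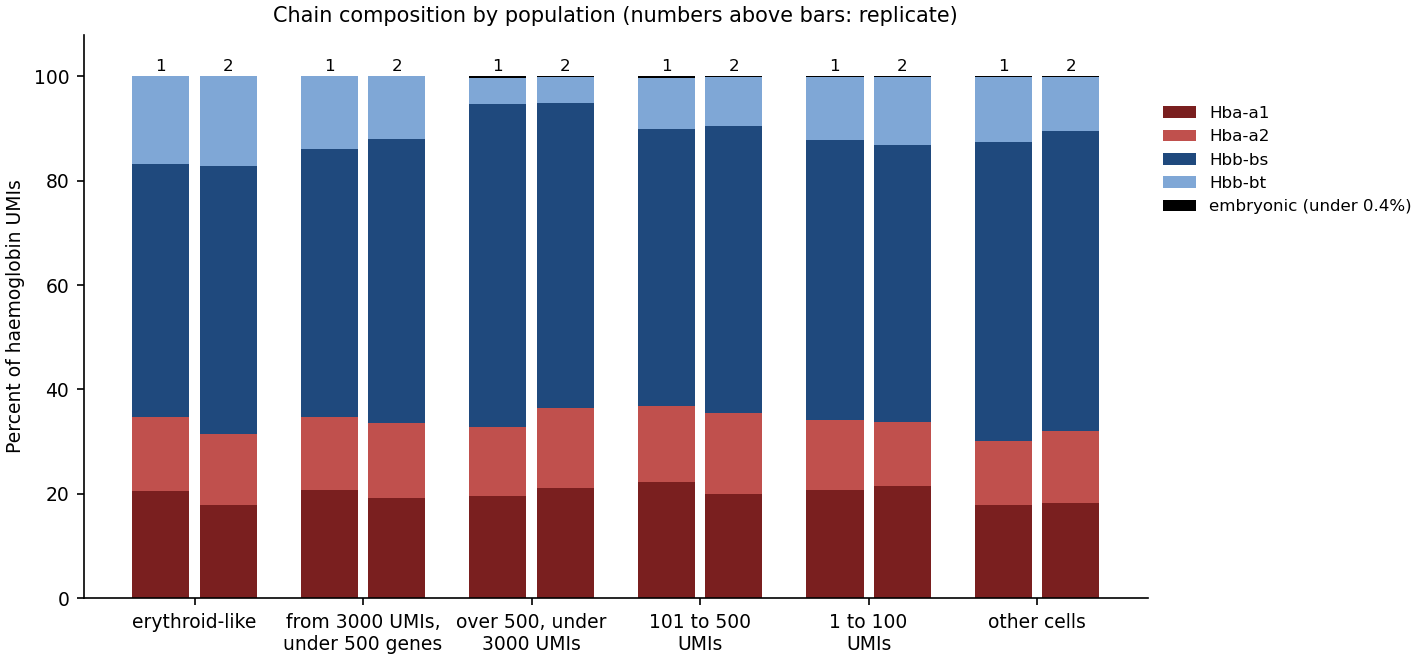
Percent of haemoglobin UMIs given by each adult chain and by the embryonic chains together, per population and replicate. Hbb-bs is the largest part in every bar, and the Hbb-bt part is narrowest in barcodes over 500 and under 3000 UMIs, where it held 7.63% and 7.93% of adult beta.

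All barcodes with at least 500 UMIs of which at least 50% were haemoglobin were then described, whatever their number of genes. There were 478 in replicate 1 and 338 in replicate 2, and 452 and 281 of them were not called cells. None shared a barcode between libraries. Here the Hbb-bt share of adult beta went with depth. In replicate 1 its median was 2.30% in the 30 barcodes under 1000 UMIs, 4.31% from there to 2000 UMIs, 8.32% from there to 4000 UMIs, 21.6% from there to 8000 UMIs and 27.2% in the 38 barcodes above. Replicate 2 gave 4.62%, 5.26%, 5.64%, 11.2% and 24.3% over the same ranges. The medians rose at each step in both libraries. The Hba-a2 share of adult alpha lay between 39.5% and 43.4% in all 10 medians. From the shallowest to the deepest range it went from 40.4% to 41.5% in replicate 1 and from 40.9% to 43.4% in replicate 2. Spearman's rho between the Hbb-bt share and UMIs was 0.752 over 478 barcodes and 0.694 over 338 barcodes, given as a description, since the barcodes of a library share its preparation. Within erythroid-like cells alone it was 0.299 and 0.347. For the Hba-a2 share, rho with UMIs was -0.00261 over the 478 barcodes and 0.271 over the 338. Within erythroid-like cells that rho was 0.0906 and -0.0278. Depth and Hbb-bt moved together, and the part of depth in the share was not tested.

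**Figure D3:**
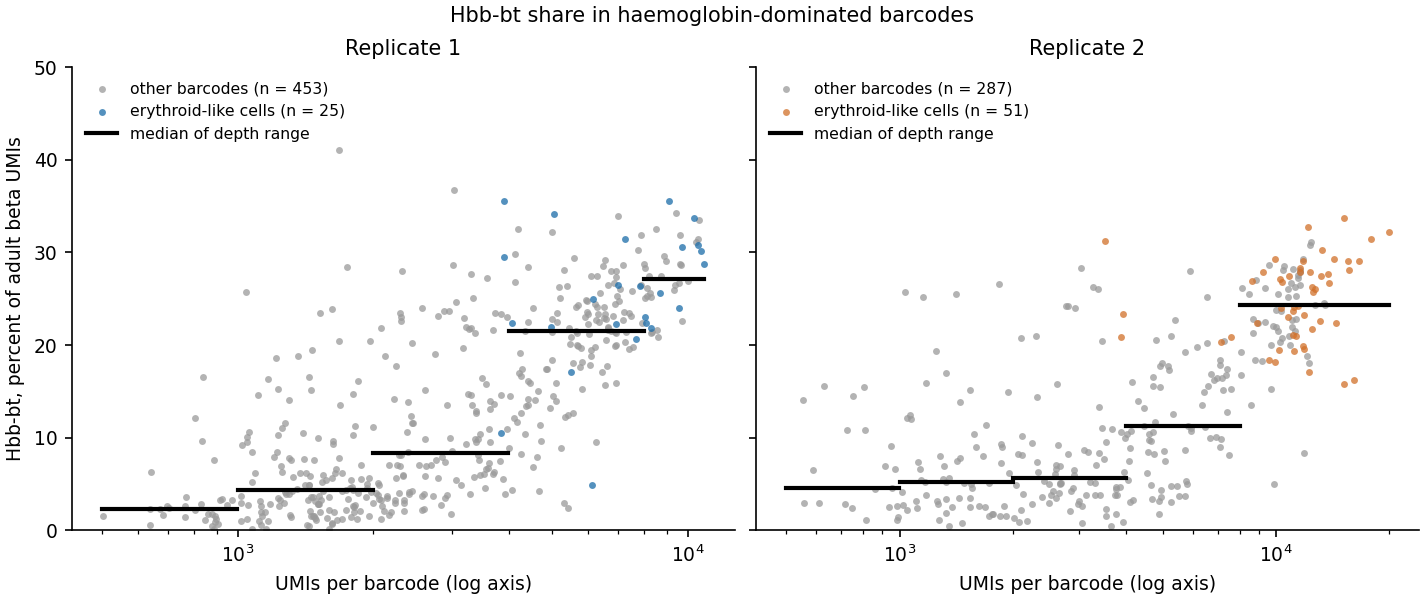
Hbb-bt as percent of adult beta UMIs against UMIs per barcode, on a log axis, in haemoglobin-dominated barcodes of each replicate, with erythroid-like cells coloured and the median of each depth range as a line. The lines climb from 2.30% to 27.2% in replicate 1 and from 4.62% to 24.3% in replicate 2.

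For 5 red cell genes, picked after earlier values had been seen, barcodes with an Hbb-bt share from 20%, 158 and 104 of them, were set beside those under 10%, 223 and 154 of them, in CPM of the UMIs that were not haemoglobin. Bpgm, which makes the 2,3-bisphosphoglycerate that lowers the oxygen affinity of haemoglobin, was 20.8-fold and 51.1-fold higher. Slc4a1, the anion exchanger band 3, was 12.3-fold and 17.5-fold higher, Glrx5, a mitochondrial iron-sulphur protein, 15.4-fold and 22.5-fold, and Car2, a carbonic anhydrase, 8.07-fold and 16.6-fold. Alas2, the red cell enzyme that starts haem synthesis, differed less, at 2.50-fold and 2.22-fold. The counts behind the low side were small for Slc4a1, at 8 and 6 UMIs, and for Glrx5, at 17 and 9 UMIs. In replicate 2 they were also small for Bpgm, at 16 UMIs, and for Car2, at 20, against 63 and 43 in replicate 1. Genes as a whole were not compared over this split. Median depth moved with the same split, at 6494.5 against 1682 UMIs in replicate 1 and 10735 against 2513.5 UMIs in replicate 2, and its part was not tested.

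Embryonic UMIs were found elsewhere, in few barcodes. Replicate 1 held 1502 in all, 751 of Hba-x, 750 of Hbb-y and 1 of Hbb-bh1. Replicate 2 held 300, 213 of Hba-x, 69 of Hbb-y and 18 of Hbb-bh1. Barcodes with at least 4 embryonic UMIs, 21 and 3 of them, held 88.7% and 82.7% of these counts, and 19 and 3 of those barcodes had fewer than 3000 UMIs. Among these barcodes, embryonic exceeded adult chains in 16 of 21 and 3 of 3. A few barcodes therefore set most of the embryonic count of each library. The 16 and 3 barcodes held 0 UMIs of the 11 red cell markers. Such UMIs were also rare in haemoglobin-dominated barcodes under 1000 UMIs, at 0.1 and 0.143 per barcode. The kind of cell behind the 16 and 3 barcodes was not tested.

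Barcodes with at least 10 Hbb-y UMIs carried adult alpha but little adult beta. The 5 of replicate 1 held 651 UMIs of Hbb-y, 180 of Hba-x, 271 of the adult alpha pair and 19 of the adult beta pair. The 2 of replicate 2 held 58, 176, 45 and 0. The largest, a barcode of 1498 UMIs, had 426 of Hbb-y, 65 of Hba-x, 91 of Hba-a1, 50 of Hba-a2, 3 of Hbb-bs and 5 of Hbb-bt, so 98.2% of its beta-type UMIs were Hbb-y. At least 10 UMIs of Hba-x with fewer than 10 of Hbb-y were found in 8 barcodes of replicate 1, with 432 UMIs of Hba-x, 15 of Hbb-y, 1160 of the adult alpha pair and 1403 of the adult beta pair, and in 1 barcode of replicate 2. Of the 8, 6 had fewer than 10 adult UMIs each, and these 6 held 370 UMIs of Hba-x. The deepest of the 6 was a stroma-like cell of 13511 UMIs and 4315 genes, with 158 UMIs of Hba-x, 3 of Hbb-y, 1 of Hbb-bs and 0 of the others. These barcodes were picked by their embryonic and adult counts, so their mixtures are descriptions.

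**Figure D4:**
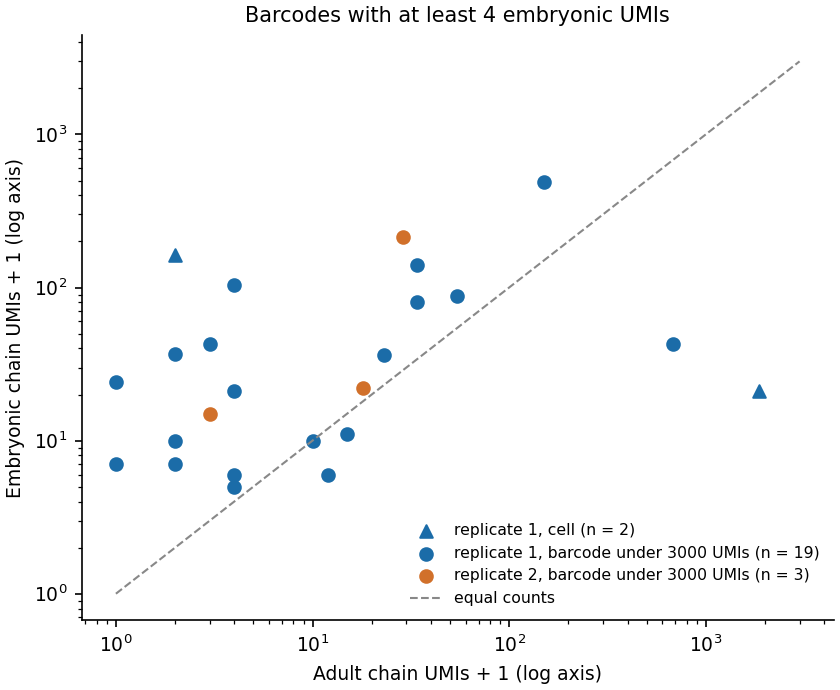
Embryonic against adult haemoglobin UMIs, each plus 1 on log axes, in the 21 barcodes of replicate 1 and 3 of replicate 2 with at least 4 embryonic UMIs, with triangles for cells and a dashed line at equal counts. Of these, 16 and 3 lie above the line, and a single barcode reaches 491 embryonic UMIs.

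Background barcodes of 1 to 100 UMIs, too shallow to be called cells, carried mainly the adult chains. Most had 1 to 10 UMIs, 2008194 of 2058384 in replicate 1 and 1967022 of 1988180 in replicate 2. Whether these barcodes sample free RNA was not tested. Haemoglobin was 0.599% of their UMIs in replicate 1 (27460 of 4587972; exact interval 0.591 to 0.606) and 1.57% in replicate 2 (63803 of 4074240; 1.55 to 1.58), a mean of 1.08% ± 0.684 (SD, n = 2). Hbb-bs was at 3210 and 8326 CPM and ranked 16 and 10 among all genes. Hba-a1 was at 1237 and 3370 CPM, Hba-a2 at 804 and 1906 CPM and Hbb-bt at 728 and 2055 CPM. All 4 were at least 2-fold higher in replicate 2, at 2.72, 2.37, 2.59 and 2.82-fold for Hba-a1, Hba-a2, Hbb-bs and Hbb-bt, where 3.52% of 14238 genes were. The 10 leading background genes of replicate 1 were Gm42418, Malat1, mt-Atp6, mt-Co3, mt-Co2, mt-Cytb, mt-Nd2, mt-Co1, mt-Nd1 and mt-Nd4. Replicate 2 had Hbb-bs in place of mt-Nd4 and the other 9 in another order, with Gm42418 first at 4.86% in replicate 1 and mt-Atp6 first at 3.65% in replicate 2.

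The order of the libraries depended on the range of UMIs. In barcodes over 100 and up to 500 UMIs, which hold 28456883 and 22145837 UMIs, haemoglobin was 0.407% in replicate 1 and 0.296% in replicate 2, with replicate 1 the higher. At 11 to 100 UMIs it was 0.155% and 1.68%, and at 1 to 10 UMIs 0.748% and 1.55%. The share of Hbb-bt in adult beta was 18.5% and 19.8% in background barcodes of 1 to 100 UMIs, lower than in erythroid-like cells in both libraries. Alpha-type chains held 34.2% and 33.7%.

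Embryonic chains were 0.0983% of background haemoglobin in replicate 1 (27 of 27460 UMIs; 0.0648 to 0.143) and 0.0251% in replicate 2 (16 of 63803; 0.0143 to 0.0407), a mean of 0.0617% ± 0.0518 (SD, n = 2). Both intervals lie above those of the erythroid-like cells of the same library. In replicate 1 the 27 UMIs were 12 of Hba-x, 14 of Hbb-y and 1 of Hbb-bh1. In replicate 2 the 16 were 2, 1 and 13. Hbb-bh1 thus led in replicate 2 alone, with 18 UMIs in the whole library, of which 8 lay in 5 barcodes with a particular mixture. Of the background barcodes of replicate 2, 243 had at least 5 UMIs of Hba-a1 and none of Hba-a2. They held 1638 UMIs of Hba-a1, 1912 of Hbb-bs, 439 of Hbb-bt and 8 of Hbb-bh1 in 5350 UMIs. Replicate 1 had 2 such barcodes. Hba-a2 was 8.12% of adult alpha at 11 to 100 UMIs in replicate 2, against 40.3% in replicate 1 and 40.6% at 1 to 10 UMIs in replicate 2. Without the 218 of these barcodes in that range it was 16.4%, still below the other values. Without all 243 the background haemoglobin share of replicate 2 was 1.47% and the embryonic share 0.0134%.

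Cells outside the erythroid-like class held few haemoglobin UMIs, and a small number of cells held most of them. The share was 0.0972% in replicate 1 and 0.117% in replicate 2, a mean of 0.107% ± 0.0137 (SD, n = 2), with a median of 2 UMIs per cell in both. Cells with at least 10% haemoglobin, 23 of 6043 and 25 of 4786, held 55.0% and 73.5% of these UMIs, and 8 and 2 of them were marked as doublets. Without them the shares were 0.0438% and 0.0311%, and the order of the libraries was reversed. The highest cells held 9737 and 11025 haemoglobin UMIs. Hbb-bs was detected in 62.0% and 65.4% of the other cells at median depths of 14469 and 18595 UMIs, and in 19.6% and 19.5% after thinning to 3000 UMIs. Thinned shares were 9.66% and 8.32% for Hba-a1, 7.60% and 7.501% for Hba-a2 and 5.44% and 4.85% for Hbb-bt. These shares describe cells not named erythroid-like, of which 1 and 6 were themselves at least 50% haemoglobin. Detection of a chain has to be read against this level.

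Among the embryonic genes in these cells, Hba-x was at 1.23 CPM in replicate 1, from 188 UMIs in 10 cells, and at 0.0369 CPM in replicate 2, from 5 UMIs in 5 cells. Of the 5 members with at least 20 counts it alone was lower by at least 2-fold in replicate 2, where 4.51% of 21162 genes were. Of the 188 UMIs, 158 lay in the stroma-like cell described above and 20 in a nephron progenitor-like cell with 1875 adult UMIs. Hbb-y, under that minimum, had 7 and 1 UMIs, and Hbb-bh1 had 0, which allows up to 3 counts. No adult gene differed by 2-fold, and 1.85% of genes were at least 2-fold higher.

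Cell classes differed in their haemoglobin share. Endothelial-like cells, which line the vessels, stood at 0.363% and 0.414%, and mural-like cells, which surround them, at 0.348% and 0.817%. The immune-like class was at 0.0408% and 0.466%, and 1 of its 73 cells in replicate 2 was above 10% haemoglobin, without which it was at 0.0197%. Stroma-like cells were at 0.110% and 0.108%. Epithelial classes of the nephron ranged from 0.0147% in podocyte-like cells of replicate 2 to 0.0923% in those of replicate 1. The lowest shares were in ureteric or collecting duct-like cells, at 0.00502% and 0.00862%, intercalated-like cells, at 0.00980% and 0.00772%, and urothelium-like cells, at 0.0137% and 0.00735% in 26 and 12 cells. Without cells of at least 10% haemoglobin, endothelial-like cells kept the highest share in both libraries, at 0.179% and 0.148%, and mural-like cells fell to 0.0715% and 0.0333%. The median cell did not follow this order. It held 1 and 2 haemoglobin UMIs in endothelial-like cells, at median depths of 11307.5 and 13650 UMIs. In ureteric or collecting duct-like cells it held 2 and 3, at 35368.5 and 26336 UMIs. The parts of depth and of doublets in the class shares were not tested.

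**Figure D5:**
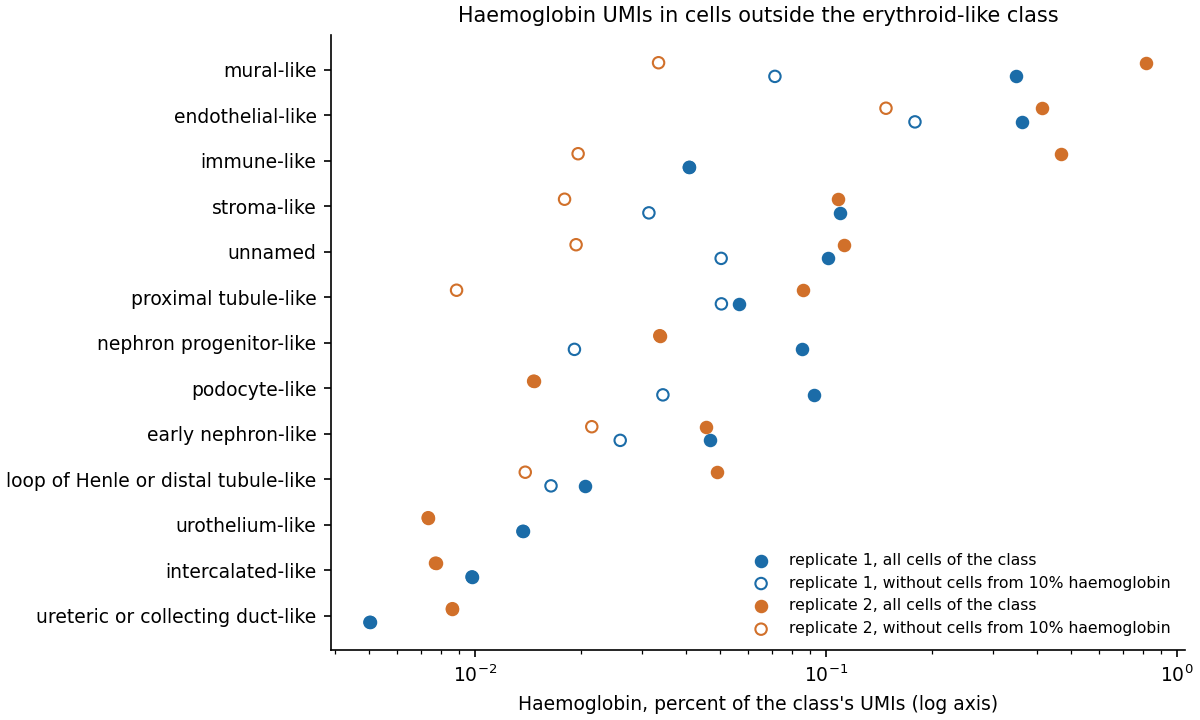
Haemoglobin as percent of each class's UMIs on a log axis, per replicate, for all cells (filled) and, where a class has any, without cells of at least 10% haemoglobin (open). Endothelial-like cells are at 0.363% and 0.414% filled and at 0.179% and 0.148% open, the rightmost open points of each replicate.

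The other genes of haemoglobin production were set out for the erythroid-like cells by fixed lists, as a description, since the class was found with genes of the same cells. A gene was counted when its CPM differed at least 2-fold from the other cells in both libraries. Of 21172 genes with at least 20 counts, 0.619% were higher and 28.9% lower by this rule. Haemoglobin itself lowers every other CPM, with a median log2 fold of -1.48 and -2.05 over 727 genes with at least 20 counts in the class. Over UMIs without haemoglobin genes the medians were 0.21 and 0.50, and 1.42% of genes were higher and 5.95% lower. The median fold over all 21172 genes was 0, because most had no count in these few cells. Of the 7 members, 5 passed the count minimum. The adult genes were higher in both libraries, Hba-x had no count in the class, and Hbb-y and Hbb-bh1 had too few counts.

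Haem synthesis genes were higher for 4 of 9 and lower for none, or higher for 6 of 9 without haemoglobin UMIs, with median folds of 1.65 and 1.17, or 5.36 and 6.85 without haemoglobin UMIs. Alas2 stood at 1279 and 1954 CPM against 3.60 and 4.76 CPM in the other cells. Fech, which inserts iron into haem, stood at 448 and 858 CPM against 25.1 and 27.0. Urod, a decarboxylase of the pathway, was at 117 and 212 CPM against 32.9 and 35.8. Alad and Cpox passed only without haemoglobin UMIs. Alas1, the form of the first enzyme used by other tissues, had 0 and 1 UMIs, and Uros and Ppox had at most 4 UMIs in either library.

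Iron and haem handling genes were higher for 4 of 14 and lower for 1, or higher for 6 without haemoglobin UMIs, with median folds of 0.884 and 0.453, or 2.86 and 2.65. Slc25a37, mitoferrin, which brings iron into the mitochondrion, was at 434 and 526 CPM against 11.7 and 10.9. Fth1, the heavy ferritin chain, was at 3823 and 4261 CPM against 1390 and 1478. Blvrb, a biliverdin reductase, was at 775 and 1111 CPM against 35.4 and 38.3, and Fam210b was at 70.0 and 96.6 CPM against 5.63 and 7.51. Hmox2, a haem oxygenase, was the lower gene, with 1 and 2 UMIs, and it was not lower without haemoglobin UMIs. Tfrc, the transferrin receptor, had 12 and 19 UMIs and passed only without haemoglobin UMIs. Of 4 genes listed for chain balance and translation control, 2 were measured. These were Eif2ak1, the haem-regulated kinase of translation, and Hebp1, a haem-binding protein, and both passed only without haemoglobin UMIs.

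Regulators of the globin genes were thinly counted. Of 17, 2 were higher and 5 lower, or 6 higher and none lower without haemoglobin UMIs, with median folds of 0.212 and 0.199, or 0.688 and 1.16. Gata1 had 6 and 4 UMIs, and Klf1, a factor needed for adult beta expression, had 7 and 8 UMIs. These were the 2 higher genes, at 28.0 and 6.66 CPM against 0.281 and 0.0295 for Gata1, and at 32.7 and 13.3 CPM against 0.726 and 1.14 for Klf1. Bcl11a, a repressor of embryonic and fetal globin genes, and Lin28b, a gene of fetal programmes, had 0 UMIs in both libraries. Myb and Gata2 also had 0. Sox6 had 5 and 12 UMIs and Zbtb7a 2 and 6 UMIs. Both were lower by CPM, together with Ldb1, Igf2bp1 and Nr2c2, and none of the 5 was lower without haemoglobin UMIs.

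Red cell metabolism genes were higher for 5 of 9 and lower for 1, or 7 and none without haemoglobin UMIs, with median folds of 3.64 and 2.87, or 11.8 and 16.8. Bpgm was at 1779 and 1351 CPM, Prdx2, a peroxidase of red cells, at 1284 and 2491 CPM, Car2 at 1078 and 841 CPM, Glrx5 at 471 and 405 CPM and Slc4a1 at 331 and 270 CPM. Aqp1, a water channel, was the lower gene, with 0 and 6 UMIs, and Car1 had 1 and 0 UMIs. Cat and Slc2a1 passed only without haemoglobin UMIs. Hbq1a and Hbq1b, theta-type genes of the alpha cluster, were both higher, with 10 and 10 UMIs of Hbq1a and 8 and 56 of Hbq1b, far below the adult chains. Hbb-bh2 had 0 counts in both libraries' cells. Cell cycle genes were lower for 5 of 7 and higher for none, or lower for 1, Top2a, without haemoglobin UMIs, with median folds of 0.132 and 0.119, or 0.428 and 0.698. The lower genes were Top2a, Cdk1, Pcna, Mcm2 and Mcm5. Mki67, with 12 and 50 UMIs, and Ccnb1, with 14 and 4, were in neither group.

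Genes outside the lists were ranked by Pearson's r with the summed adult chains over the 81 erythroid-like cells, on log(CPM + 1) centred within library, among 122 genes with at least 100 counts. Gabarapl2, an autophagy protein, was closest at r = 0.558. Ube2l6 followed at 0.342, Sec61g at 0.301, Isg20 at 0.270, Mkrn1 at 0.269, Ube2c at 0.268, Prxl2a at 0.241, Ptp4a3 at 0.226 and H2afj at 0.207. The cells share their library and the same total in each CPM. No ranking was made for the embryonic chains, which had 3 UMIs in 2 of these cells.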

How the data were processed

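The 2 P0 kidney libraries were measured by 3' single-cell sequencing on the Chromium system, per the labels' protocols. The deposited matrices hold raw counts of UMIs for all barcodes. Cell Ranger 6.0.1 and build mm10 are named in the submitters' processing notes, while the file headers name Cell Ranger 4.

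Cells were barcodes with at least 3000 UMIs and 500 genes. Clustering used scanpy 1.11.5 (2000 variable genes, 30 components, 15 neighbours, Leiden resolution 1), without haemoglobin, list and cell cycle genes. No doublets were removed; the highest 0.8% of Scrublet scores per 1000 cells were marked, 295 and 187 cells. Counts were summed per library, and shares have exact Clopper-Pearson intervals. No test of groups was possible with 1 group. Fold calls (2-fold, at least 20 counts, side counts above 3) were tested on simulated data. The requirement of more than 3 counts was set after the values had been seen.

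Genes were named by rule: all 7 members; list genes past the fold, up to the 5 highest by CPM per list, and all members of lists of 9 or fewer; the 10 genes most like the adult chains; and the 10 leading background genes. Regulators and iron genes outside that rule were named after their values had been seen. Members and lists were chosen with earlier results of these data known. Some genes that the rule names are not reported here.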

Additional observations from a re-analysis of the deposited data

Results flagged for a closer look

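Embryonic haemoglobin UMIs were counted in barcodes over 100 and under 3000 UMIs, which belong neither to the cells nor to the background of 1 to 100 UMIs: 1274 in replicate 1 and 269 in replicate 2. The erythroid-like cells of the same libraries held 1 and 2. Barcodes with at least 3000 UMIs and fewer than 500 genes, which no main comparison used, held 989583 haemoglobin UMIs in replicate 1 and 919214 in replicate 2, against 148160 and 497871 in the erythroid-like cells.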

How the results depend on the processing

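Of 40 alternatives to the 6 haemoglobin shares, other than leaving out a library, 30 moved the value by less than 1 SD between libraries and 10 by more. The 30 include sums over both libraries, which must lie between the 2 library values and so could not move by 1 SD. They also include Leiden resolution 2, which gave the same erythroid-like cells and so the same values. Neither says anything about stability. A per-cell marker rule named 31 and 43 cells, of which 21 and 39 were among the 29 and 52 erythroid-like cells. The embryonic share in erythroid-like cells was 7.403e-04% with this rule and 0.00211% in haemoglobin-dominated barcodes, an alternative chosen after seeing the data. The latter is the mean of 0.00365% and 5.625e-04%, and 42 of the 51 embryonic UMIs of replicate 1 lay in 1 barcode. The Hbb-bt share was 25.7% at 5000 UMIs, 24.4% as a mean of per-cell shares and 19.2% in haemoglobin-dominated barcodes. In barcodes over 100 and up to 500 UMIs the embryonic share was 0.188%, the mean of 0.352% in replicate 1 and 0.0244% in replicate 2, and the haemoglobin share was 0.351%. In other cells the haemoglobin share was 0.0906% with mitochondrial and doublet filters, 0.143% with the per-cell marker rule and 0.0374% without cells of at least 10% haemoglobin, the last also chosen after seeing the data. The causes were not tested.

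Leaving out either library returns the value of the other, which with 2 libraries says nothing about stability. It gave 4.017e-04% to 6.749e-04% for the embryonic share and 25.2% to 25.6% for the Hbb-bt share in erythroid-like cells. It gave 31.4% to 34.8% for the alpha-type share. In background it gave 0.0251% to 0.0983% embryonic and 0.599% to 1.57% haemoglobin, and in other cells 0.0972% to 0.117%. The CPM of 62 of 68 list genes moved by more than 1 SD when haemoglobin UMIs were left out of the denominator, and the other 6 had no counts. The smaller denominator moves every counted gene by more than such an SD can reach. This count was therefore fixed in advance and says nothing about stability. No paired analysis was possible because the labels give 1 group and no replicate numbers. Embryonic shares in erythroid-like cells rest on 3 UMIs, so depth limits them to an upper bound.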
